A study of Homo sapiens with 6 samples.

Results

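The genes described here encode enzymes that build nucleotides and carry folate-bound one-carbon units. They were chosen by name, with earlier results of these data known. All 34 listed symbols were found among the 58735 rows of the count table, each in 1 row. All 34 passed the filter on low counts. They fall into 6 groups by role: 10 genes of purine de novo synthesis, 4 of phosphoribosyl pyrophosphate (PRPP) supply and purine salvage, 7 of pyrimidine synthesis and salvage, 2 nucleoside diphosphate kinases, 7 of deoxynucleotide supply and 4 of folate one-carbon metabolism.

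RNA was sequenced from ACHN, an established human renal cancer cell line. Of 6 libraries, 3 came from cells given a control siRNA and 3 from cells given an siRNA labelled si01 against OTUD1, a deubiquitinating enzyme that removes ubiquitin from other proteins. The series title links OTUD1 to STAT3 and to the immune checkpoint ligand PD-L1. All cells grew in minimum essential medium with serum, and the labels record transfection for both groups. The knockdown rests on this 1 siRNA in 1 cell line. Nothing in the labels tells separately cultured replicates from repeat preparations. The p-values therefore cover the spread among these 6 libraries, and that spread may be technical.

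Purine synthesis assembles the purine ring step by step on PRPP and ends in AMP and GMP, whereas pyrimidine synthesis makes the ring first and then joins it to PRPP. Ribonucleotide reductase turns ribonucleotides into deoxyribonucleotides, and thymidylate synthase methylates dUMP to dTMP with a folate-bound carbon. Serine hydroxymethyltransferases and the MTHFD enzymes supply those carbons, which purine synthesis also uses. Dividing cells are known to make more of many of these enzymes, several of them mainly around S phase, when DNA is copied.

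Each library held between 16753495 and 21013530 counts. The share of counts from mitochondrial genes was 5.37% to 5.77% in the controls and 6.26% to 6.38% after OTUD1 siRNA, and that of the 10 most abundant genes was 7.20% to 7.54% against 7.98% to 8.05%. Both separated the groups, and their part in the results was not tested. OTUD1 had 3.82, 3.69 and 3.80 CPM (counts relative to library size, scaled by the trimmed mean of M-values, TMM) in the control libraries and 1.28, 0.844 and 1.39 in the OTUD1 siRNA libraries. This was 3.22-fold lower (log2 fold change -1.69, SE 0.24, edgeR quasi-likelihood test, adjusted p = 4.37e-07), on 193 and 70 counts summed over each group. The renal and epithelial genes PAX8 and KRT8 were present in both groups, at 642 and 4112 CPM in the controls and 409 and 1957 CPM after OTUD1 siRNA, while CDH16 and CDH1 were under 2 CPM and CA9 was at or near 0. Of 10 tested genes of that marker list 6 were lower and 2 higher, KRT19 (0.41) and EPCAM (0.14). The leukocyte markers PTPRC and CD3E had 0 counts in all 6 libraries. Of the fibroblast markers, PDGFRB was higher (4.56 ± 0.887 against 7.96 ± 0.956 CPM, SD, n = 3; log2 fold change 0.80, adjusted p = 3.75e-05), COL1A1 did not pass the test, and COL1A2, DCN and LUM were at or near 0. Over all 15244 genes tested, 4746 were lower (31.1%) and 4460 were higher (29.3%) at an adjusted p under 0.05, so 48.4% of the calls were higher. With library totals as the only scaling this share was 64.2%, and the median of all genes moved up by 0.13 on the log2 scale.

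After OTUD1 siRNA, 23 of the 34 enzyme genes were lower (67.6%, where 31.1% of all genes tested were lower) and 4 were higher (11.8%, where 29.3% of all genes were higher). The other 7 did not pass the test. The median log2 fold change of the 34 was -0.25, beside 0.01 over all genes tested, and 30 of the 34 estimates were negative. The estimates ran from -1.44 for RRM2 to 0.50 for CTPS2. The summed level of the 34 genes was 4927, 4859 and 4926 CPM in the control libraries and 4180.2, 4153 and 4167 CPM in the OTUD1 siRNA libraries, so the groups did not overlap. Of the calls, 16 lower and 2 higher held in each of the 14 alternative analyses. With library totals as the scaling, 16 of the 34 were lower and 6 higher, and with quantile normalization 18 were lower and 7 higher. The median was -0.12 and -0.15 under these settings.

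**Figure D1:**
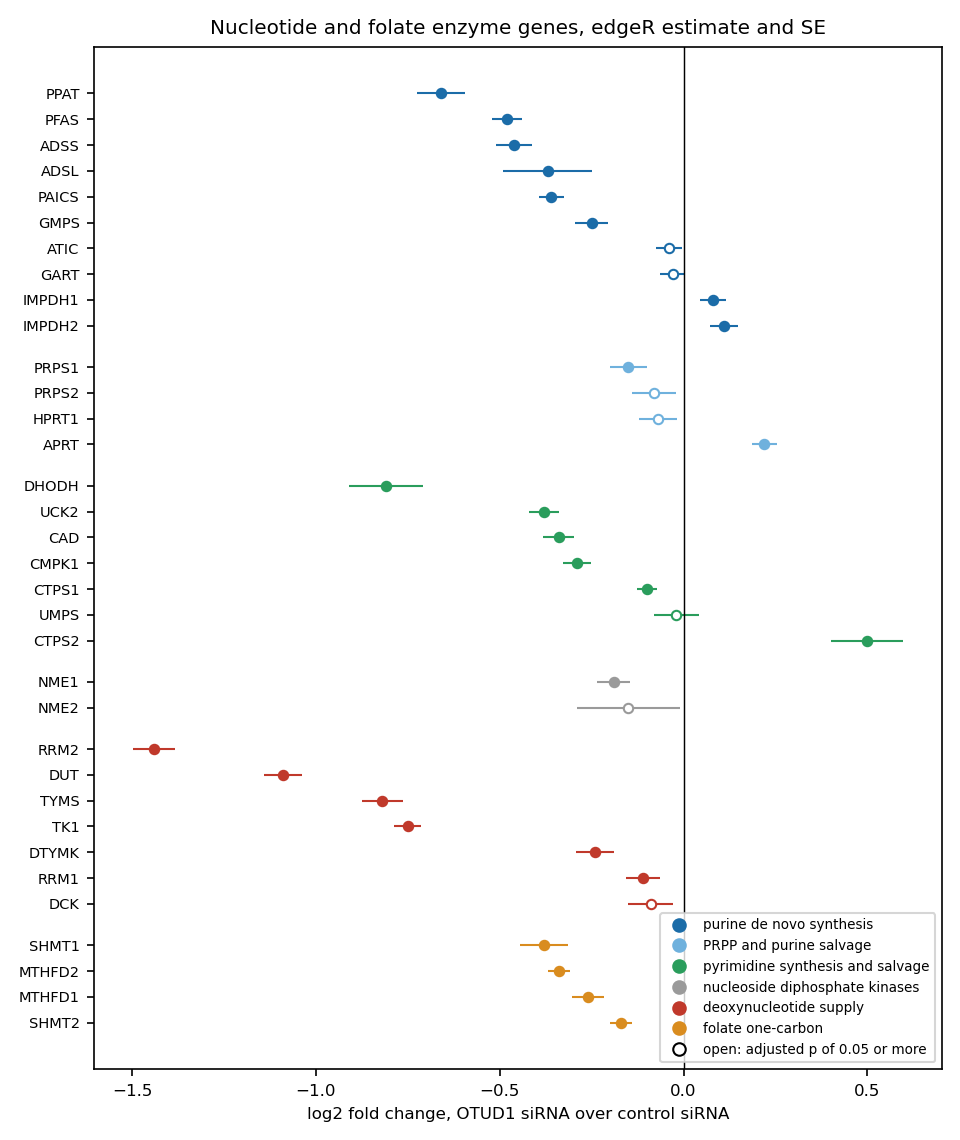
Each point is the edgeR log2 fold change of 1 enzyme gene (OTUD1 siRNA over control siRNA, 3 libraries each) with its standard error as a bar, coloured by group, and open points mark genes with an adjusted p of 0.05 or more. RRM2 lies farthest to the left at -1.44 and CTPS2 farthest to the right at 0.50.

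The deoxynucleotide genes had the lowest median of the 6 groups, -0.75. Of the 7 genes, 6 were lower (85.7%, against 31.1% of all genes tested). None was higher, against 29.3% of all genes tested (0 higher also at an unadjusted p under 0.05 and by DESeq2). RRM2, the small subunit of ribonucleotide reductase that carries the radical needed for catalysis, had 98.4, 100.3 and 86.6 CPM in the controls and 36.6, 34.8 and 33.4 CPM after OTUD1 siRNA. The groups did not overlap, and the level was 2.72-fold lower (log2 fold change -1.44, SE 0.058, edgeR adjusted p = 1.17e-18). Only 0.912% of the genes tested had a more negative estimate. RRM2 shares 20.2% of its exon bases with AC007240.1 on the same strand, which held 42 and 16 counts in all per group.

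DUT, the dUTPase that keeps uracil out of DNA and yields dUMP, had 95.4, 88.5 and 88.6 CPM in the controls and 43.8, 40.8 and 43.2 CPM after OTUD1 siRNA. All 3 siRNA libraries lay below all 3 controls, at a 2.13-fold lower mean (log2 fold change -1.09, SE 0.051, adjusted p = 4.6e-17). TYMS, thymidylate synthase, which uses that dUMP, had 75.2, 68.1 and 77.5 CPM against 40.1, 42.4 and 42.4 CPM (log2 fold change -0.82, SE 0.056, adjusted p = 2.1e-13). TK1, the cytosolic thymidine kinase that makes dTMP from salvaged thymidine, had 276, 252 and 272 CPM against 159, 156 and 161 CPM (log2 fold change -0.75, SE 0.037, adjusted p = 1.7e-16). For TYMS and for TK1, the 2 routes to dTMP, every siRNA library lay below every control. Exons of other genes on the opposite strand cover 46.6% of the exon bases of TYMS, the largest share from ENOSF1, and the counting is not stated to use strand. ENOSF1 itself had 54.5 ± 2.01 CPM in the controls and 51.6 ± 1.89 CPM after OTUD1 siRNA (SD, n = 3), and it did not pass the test.

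The remaining genes of this group differed less between the groups of libraries. DTYMK, the kinase that takes dTMP to dTDP, had 103 ± 9.67 CPM in the controls and 87.1 ± 3.39 CPM after OTUD1 siRNA (SD, n = 3; log2 fold change -0.24, adjusted p = 0.0002), a call that was lost with library totals (-0.11). RRM1, the large catalytic subunit, had 97.5, 112 and 104 CPM against 95.7, 97.8 and 98.2 CPM (log2 fold change -0.11, SE 0.046, adjusted p = 0.049). Its groups overlapped, its direction and call held in only 3 of the 14 alternatives, and its estimate was 0.02 with library totals. DCK, which phosphorylates salvaged deoxycytidine and purine deoxynucleosides, had 38.8, 38 and 37.3 CPM against 36.8, 36.1 and 34.3 CPM and did not pass the test (log2 fold change -0.09, adjusted p = 0.213).

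**Figure D2:**
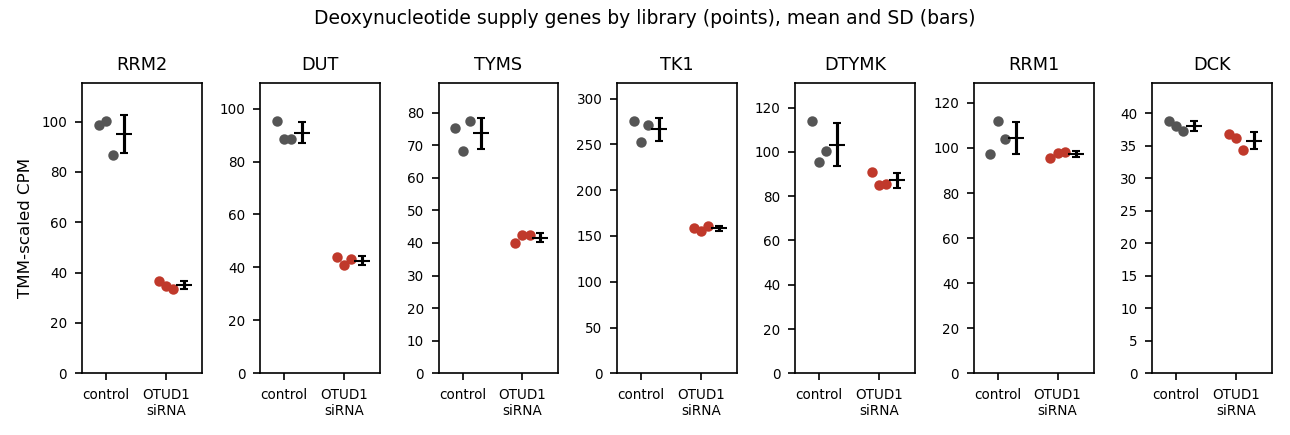
TMM-scaled CPM of the 7 deoxynucleotide supply genes, 1 panel per gene with an axis from 0, shows each library as a point and the mean and SD of 3 libraries as a bar. The siRNA libraries of RRM2, DUT, TYMS and TK1 lie well below the controls, whereas those of RRM1 overlap them.

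Ratios between genes of the same library do not depend on how libraries are scaled. The log2 ratio of RRM1 to RRM2 was -0.01, 0.16 and 0.26 in the controls and 1.39, 1.49 and 1.56 after OTUD1 siRNA, a 2.54-fold rise of the ratio. The log2 ratio of RRM2 to RRM2B, the small subunit known for dNTP supply outside S phase, was 0.31, 0.13 and 0.11 against -0.70, -0.66 and -0.67. RRM2B was itself lower (83.8 ± 6.57 against 55.8 ± 3.08 CPM, SD, n = 3; log2 fold change -0.59, SE 0.055, adjusted p = 2.63e-10), by less than RRM2. The log2 ratio of TK1 to DCK was 2.83, 2.73 and 2.87 against 2.11, 2.11 and 2.23. The groups of libraries did not overlap in 6 of the 10 pairs examined. Each of these had p = 0.1 in an exact two-sided permutation test, and 0.167 after adjustment over the 10 pairs. A p of 0.1 is the smallest that 3 against 3 libraries can give. How often the ratio of other gene pairs separates the groups was not tested, where 31.1% of all genes were lower and 29.3% higher.

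**Figure D3:**
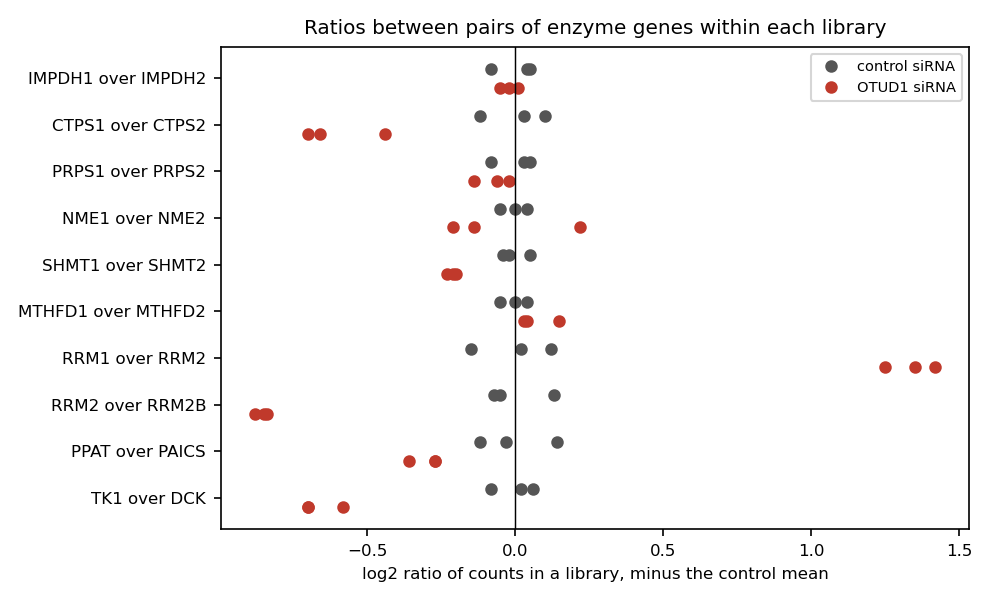
Each point is the log2 ratio of the counts of 2 genes in 1 library, minus the mean of the 3 controls, with control libraries in grey and OTUD1 siRNA libraries in red. The ratio of RRM1 to RRM2 moved furthest, by 1.34, and the pairs IMPDH1/IMPDH2, PRPS1/PRPS2, NME1/NME2 and MTHFD1/MTHFD2 overlap.

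Purine de novo synthesis held 6 lower (60%) and 2 higher (20%) genes of 10, beside 31.1% and 29.3% of all genes tested. The median of these 10 genes was -0.31 (-0.18 with library totals and with quantile normalization). PPAT, which commits PRPP to the pathway, had 55.3, 66.4 and 54.6 CPM in the controls and 37.7, 37.8 and 35.7 CPM after OTUD1 siRNA (log2 fold change -0.66, SE 0.065, adjusted p = 6.24e-10). PFAS, which makes the formylglycinamidine intermediate, had 133, 129.6 and 130.2 CPM against 97, 91.2 and 93.3 CPM (log2 fold change -0.48, SE 0.04, adjusted p = 2.36e-11). ADSS, the adenylosuccinate synthase on the AMP branch, had 75.9, 79.5 and 82.2 CPM against 55.4, 59.2 and 58.2 CPM (log2 fold change -0.46, SE 0.049, adjusted p = 3.28e-09). In each of these 3 genes every siRNA library lay below every control.

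PAICS, a bifunctional enzyme of the middle of the pathway, was lower by 0.36 on the log2 scale, from 257, 274 and 270.3 CPM to 207, 207 and 209 CPM. ADSL, which acts both in the ring synthesis and on the AMP branch, had an estimate of -0.37 (adjusted p = 0.00857) and lost its call with library totals (-0.24). ADSL had the lowest level per kilobase of exon of the 34, 1.24 CPM per kilobase in the controls, and 18.9% of its exon bases overlap AL022238.4 on the same strand, which held 12 and 13 counts per group. GMPS, which makes GMP, was lower by 0.25 on the log2 scale (adjusted p = 2.01e-05). GART and ATIC, multifunctional enzymes that use formyl-folate, did not pass the test, with 199.7 ± 5.31 against 195 ± 1.64 CPM and 194 ± 1.81 against 189 ± 4.37 CPM (SD, n = 3). Both were called higher with library totals (0.09 each) and with quantile normalization (0.12 and 0.11).

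The 2 higher genes of the pathway were the IMP dehydrogenases, which commit IMP to the GMP branch. IMPDH2 had 195, 191 and 209 CPM in the controls and 210.2, 214 and 217 CPM after OTUD1 siRNA (log2 fold change 0.11, SE 0.037, adjusted p = 0.0144). IMPDH1 had 165, 163 and 163 CPM against 175, 169.7 and 176 CPM (log2 fold change 0.08, SE 0.035, adjusted p = 0.0397). Both differences were small next to those of PPAT and PFAS, and neither call was stable. The IMPDH2 call was lost without control replicate 2 (0.08) or siRNA replicate 3 (0.10). The IMPDH1 call was lost without the filter and without control replicate 2, control replicate 3, siRNA replicate 1 or siRNA replicate 3, at 0.08 each time.

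PPAT and PAICS are transcribed away from each other on chromosome 4, with 136 bases between their RefSeq start sites. The log2 ratio of PPAT to PAICS was -2.22, -2.05 and -2.31 in the controls and -2.46, -2.46 and -2.55 after OTUD1 siRNA, so PPAT was lower by more than its neighbour. The stretch between the genes up to the first GENCODE exon of PAICS (GRCh38.p14, chr4:56435616-56435740, plus strand) is printed because both genes of this shared promoter were lower, and it holds none of the motifs searched. The E-box CACGTG, in capitals, lies inside PAICS, 40 bases after its start site, and falls in the promoter windows of both genes (chr4:56435772-56435801, plus strand).
PPAT and PAICS, between the genes: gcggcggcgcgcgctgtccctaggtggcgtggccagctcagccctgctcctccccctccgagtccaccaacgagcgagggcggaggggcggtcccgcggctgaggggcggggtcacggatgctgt
PAICS, E-box: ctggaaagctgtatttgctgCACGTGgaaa

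PRPP supply and purine salvage held 1 lower and 1 higher gene of 4. Each is 25%, below the 31.1% lower and 29.3% higher of all genes tested. APRT, which makes AMP from salvaged adenine, was higher, with 165, 169 and 173 CPM in the controls and 198, 194 and 199.9 CPM after OTUD1 siRNA (log2 fold change 0.22, SE 0.035, adjusted p = 4.19e-06), and this call held in all 14 alternatives. PRPS1, a PRPP synthetase, had 71.2, 65.4 and 64.1 CPM against 59.9, 61.4 and 58.8 CPM (log2 fold change -0.15, adjusted p = 0.0106). The PRPS1 call was lost with a minimum of 5 CPM (-0.11), library totals (-0.03), quantile normalization (-0.06) and without control replicate 1 (-0.11). PRPS2 and the hypoxanthine and guanine salvage enzyme HPRT1 did not pass the test, at -0.08 and -0.07 on the log2 scale.

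The pyrimidine genes held 5 lower (71.4%) and 1 higher (14.3%) of 7, beside 31.1% and 29.3% of all genes tested. The median of these 7 genes was -0.29 (-0.17 with library totals and with quantile normalization). DHODH, the mitochondrial enzyme that oxidizes dihydroorotate, had 20, 16.9 and 20 CPM in the controls and 9.98, 12.2 and 10.3 CPM after OTUD1 siRNA, 1.75-fold lower (log2 fold change -0.81, SE 0.1, adjusted p = 6.48e-08). CAD, which carries out the first 3 steps of the pathway in 1 protein, was lower by 0.34 on the log2 scale, from 115 ± 2.73 to 90.6 ± 2.62 CPM (SD, n = 3; adjusted p = 3.66e-08). UMPS, which completes UMP, had 37.7, 39.2 and 37.9 CPM against 35.6, 38.1 and 39.6 CPM and did not pass the test. Its groups overlapped, unlike those of DHODH, the step before it.

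The CTP synthases, which turn UTP into CTP, gave opposite calls. CTPS2 had 11.7, 13.9 and 12.4 CPM in the controls and 19.4, 15.9 and 18.4 CPM after OTUD1 siRNA, 1.41-fold higher (log2 fold change 0.50, SE 0.098, adjusted p = 6.76e-05), and this call held in all 14 alternatives. CTPS1 had 648, 657 and 653 CPM against 614, 606 and 602 CPM (log2 fold change -0.10, SE 0.027, adjusted p = 0.00176). The CTPS1 call was lost with a minimum of 5 CPM (-0.06), and its direction turned with library totals (0.03) and with quantile normalization, where it was higher (0.12). The ratio between them needs no scaling: the log2 ratio of CTPS1 to CTPS2 was 5.79, 5.57 and 5.72 in the controls and 4.99, 5.25 and 5.03 after OTUD1 siRNA, a drop of 1.52-fold without overlap. Counts of CTPS1 remained far above those of CTPS2 in all 6 libraries.

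UCK2, which phosphorylates salvaged uridine and cytidine, had 176, 159 and 169 CPM in the controls and 131, 127 and 128 CPM after OTUD1 siRNA (log2 fold change -0.38, SE 0.04, adjusted p = 1.75e-09). CMPK1, the kinase for UMP and CMP, was lower by 0.29 on the log2 scale (adjusted p = 1.03e-07). Of the nucleoside diphosphate kinases, which make triphosphates, NME1 had 124, 110.4 and 116 CPM against 107, 99.6 and 99.7 CPM (log2 fold change -0.19, adjusted p = 0.000555), and its call was lost with library totals (-0.06) and quantile normalization (-0.08). NME2 was at 6.55 ± 0.492 and 5.92 ± 0.679 CPM (SD, n = 3) and did not pass the test. These genes share exon bases on the same strand with the readthrough gene NME1-NME2, 18.6% for NME1 and 22.9% for NME2, so how their counts were divided is uncertain.

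All 4 folate genes were lower, where 31.1% of all genes tested were lower. The median of these 4 genes was -0.30 (-0.17 with library totals and -0.14 with quantile normalization). SHMT1, the cytosolic serine hydroxymethyltransferase, had 39.9, 35.1 and 36.5 CPM in the controls and 28.5, 28.4 and 28.5 CPM after OTUD1 siRNA (log2 fold change -0.38, SE 0.065, adjusted p = 1.01e-05). MTHFD2, the mitochondrial methylene-folate dehydrogenase, had 475, 481 and 476 CPM against 370.4, 388 and 376 CPM (log2 fold change -0.34, SE 0.03, adjusted p = 6.71e-11). MTHFD1, its trifunctional cytosolic relative, had 99.5, 94.7 and 96.8 CPM against 83.5, 80.3 and 78.4 CPM (log2 fold change -0.26, SE 0.044, adjusted p = 7.82e-06). The cytosolic and mitochondrial MTHFD genes were lower by similar amounts, and their ratio overlapped between the groups (log2 change 0.07, exact permutation p = 0.3).

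SHMT2, the mitochondrial serine hydroxymethyltransferase, had 506, 469 and 496 CPM in the controls and 434, 431 and 442 CPM after OTUD1 siRNA (log2 fold change -0.17, SE 0.031, adjusted p = 2.91e-05). Its call was lost with library totals (-0.04), and its estimate was 0.06 with quantile normalization. The log2 ratio of SHMT1 to SHMT2 was -3.67, -3.74 and -3.76 in the controls and -3.93, -3.92 and -3.95 after OTUD1 siRNA, so the cytosolic gene was lower by more than the mitochondrial one in every siRNA library. Exons on the opposite strand, the largest share from SLC4A5, cover 33.2% of the exon bases of MTHFD2, and SLC4A5 had 19 and 28 counts in all per group.

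**Figure D4:**
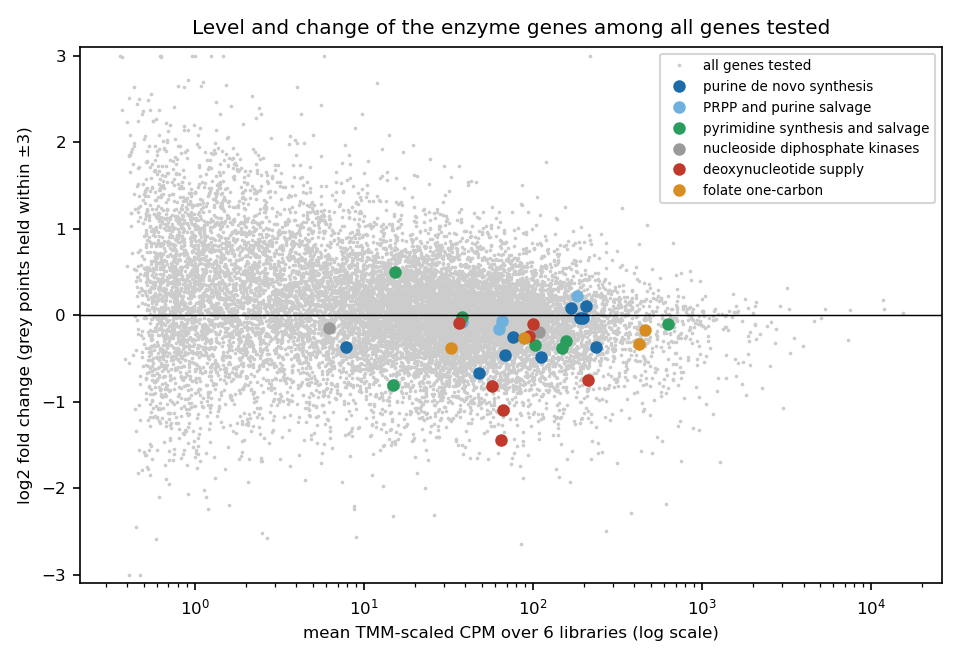
The mean TMM-scaled CPM over 6 libraries (log scale) is plotted against the log2 fold change for all 15244 genes tested (grey) and the 34 enzyme genes (coloured by group). The deoxynucleotide genes RRM2, DUT, TYMS and TK1 lie below most genes of their level, and the most abundant members, CTPS1 and SHMT2, lie near 0.

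Per kilobase of exon, the most abundant of the 34 genes in the controls were TK1 at 143, SHMT2 at 101, MTHFD2 at 98.1 and APRT at 93.8 CPM per kilobase. The least abundant, after ADSL, were CTPS2 at 2.3, NME2 at 2.49 and DHODH at 2.73 CPM per kilobase. The length used pools all annotated exons of a gene, and a single transcript may be shorter. ADSL and NME2 share 18.9% and 22.9% of their exon bases with other genes on the same strand. How their counts were divided is uncertain, and so is their place in this order. By this measure the list spans genes of very different level, and DHODH and CTPS2, with similar low levels, had opposite calls.

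Neighbouring steps of the same pathways were read from lists of genes that are not among the 34, beside 31.1% lower and 29.3% higher over all genes tested. Of 24 tested genes of purine interconversion, salvage and breakdown, 7 were lower (29.2%) and 13 higher (54.2%, median 0.21). AK4, a mitochondrial adenylate kinase, had 45.8 ± 0.891 CPM in the controls and 19.6 ± 0.951 CPM after OTUD1 siRNA (SD, n = 3; log2 fold change -1.23). PNP, which splits purine nucleosides, went from 148 ± 3.8 to 77.6 ± 4.1 CPM (-0.94), and MAT2A, which makes S-adenosylmethionine, from 360.0 ± 8.04 to 222 ± 7.44 CPM (-0.70). GDA, guanine deaminase, was higher at 0.68 on the log2 scale.

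Of 7 tested genes of pyrimidine salvage and breakdown, none was lower and 5 were higher (71.4%, median 0.39), and 0 were lower also at an unadjusted p under 0.05 and by DESeq2. TYMP, thymidine phosphorylase, which breaks thymidine down, had 24.4, 19.9 and 22.8 CPM in the controls and 52.5, 49.5 and 51.4 CPM after OTUD1 siRNA (log2 fold change 1.20, SE 0.068, adjusted p = 3.92e-15). TK1, which uses thymidine for dTMP, was lower in the same libraries. DPYD, the first enzyme of uracil and thymine breakdown, was higher by 0.39 on the log2 scale, and UPRT by 0.60. CDA, cytidine deaminase, had 7, 10 and 1 counts in the controls and 16, 21 and 11 after OTUD1 siRNA, and its call was lost in 7 alternatives.

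Of 10 other genes of deoxynucleotide supply and removal, 3 were lower (30%, near the 31.1% of all genes) and 5 higher (50%, median 0.13). The mitochondrial thymidine kinase TK2 was higher by 0.42, the dCMP deaminase DCTD by 0.35 and the nucleotide hydrolase DNPH1 by 0.48 on the log2 scale, whereas RRM2B and the dCTP pyrophosphatase DCTPP1 (-0.27) were lower. No gene of the other nucleoside diphosphate kinases passed the edgeR test, 0 of 5, with 1 at an unadjusted p under 0.05 and 0 called by DESeq2 or limma voom, while quantile normalization called 1 higher. Nucleotidases gave 4 lower (36.4%) and 3 higher (27.3%) of 11, both near the shares of all genes, with ENTPD1 at 0.81, NT5C2 at -0.58, NT5C at 0.47 and NT5C3B at -0.38. Of 3 tested nucleoside transporters, SLC29A3 was higher at 0.68.

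Of 18 tested genes of the folate cycle, folate import and glycine cleavage, 8 were lower (44.4%) and 3 higher (16.7%, median -0.17). MTRR and MTR, which regenerate methionine, were lower by 0.80 and 0.59 on the log2 scale, GCSH of the glycine cleavage system by 0.97 and the folate carrier SLC19A1 by 0.64. In serine synthesis, PSPH (-0.41) and PSAT1 (-0.28) were lower, and the PSAT1 call was lost with quantile normalization (-0.06).

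**Figure D5:**
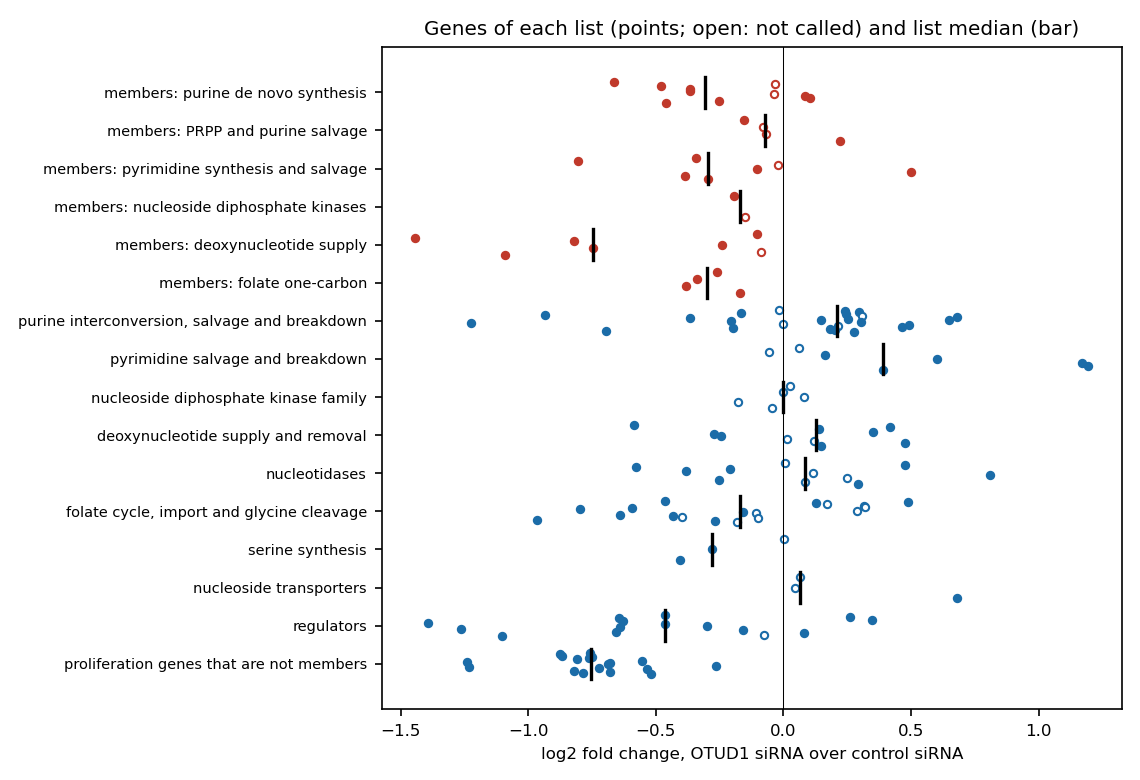
Each point is the log2 fold change of 1 gene and each bar the median of its list, with the 34 enzyme genes in red, the other lists in blue and open points for genes that were not called. The medians of deoxynucleotide supply (-0.75) and of the proliferation genes (-0.76) lie farthest to the left, and that of pyrimidine salvage and breakdown (0.39) farthest to the right.

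Genes of DNA replication and cell division moved with the deoxynucleotide genes. All 18 proliferation genes tested were lower (31.1% of all genes were), with a median of -0.76, including CDC6 (-1.24), which loads the replicative helicase, CCNE2 (-1.23), and the helicase subunits MCM3 and MCM4 (-0.87 each). Their summed level was 2301, 2315 and 2296 CPM in the controls and 1381, 1390 and 1365 CPM after OTUD1 siRNA. That of the 7 deoxynucleotide genes was 795, 754 and 766 CPM against 503, 493 and 498 CPM. The share of cells in each phase of the cycle was not measured, and in bulk RNA fewer cells of a kind and less RNA per cell cannot be told apart. The part of proliferation in the changes of the enzyme genes was not tested.

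Of 15 tested regulators known for these pathways, 11 were lower (73.3%, against 31.1% of all genes) and 3 higher (20%, against 29.3%). Their median was -0.47. E2F2 (-1.39), E2F8 (-1.27), E2F1 (-0.63) and TFDP1 (-0.66), members of the E2F and DP family that controls S phase genes, were lower, as was RPS6KB1 (-1.10), the S6 kinase known to activate CAD. MYC had 216 ± 2.01 CPM in the controls and 157 ± 2.49 CPM after OTUD1 siRNA (SD, n = 3; log2 fold change -0.46, adjusted p = 1.75e-12). Its partner MAX (0.26) and the MAX partner MNT (0.35) were higher, while another MAX partner, MXD1, was lower (-0.65, adjusted p = 6.18e-07). ATF4, known to activate MTHFD2 and serine synthesis genes, was higher by 0.08 on the log2 scale (adjusted p = 0.0159), a call that was lost without the filter and without siRNA replicate 2 or siRNA replicate 3 (0.07 each). The part of any regulator was not tested.

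Promoters were read as RefSeq windows (GRCh38.p14) of 250 bases before and 50 after a start site, which matched 31 of the 34 genes. Motifs were searched on both strands. E2F-type motifs (TTTCGCGC, TTTGGCGC or TTTCCCGC) were in windows of 5 of the 31 genes (16.1%, against 3.3% of all RefSeq genes), the E-box CACGTG in 7 (22.6%, against 8.77%) and the CCAAT box in 13 (41.9%, against 39.7%). TGATGNAA, an ATF4-type motif, was in none, against 4.46% of all genes. Among tested genes with a window the shares were 5.52% for E2F-type motifs, 12.6% for CACGTG and 42.7% for CCAAT.

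The matches in the 4 deoxynucleotide genes with the largest changes are printed with those of the 3 other carriers of an E2F-type motif, since these carriers differ in outcome. Each line gives 30 bases on the strand of the gene, with the match in capitals. Distances are from the start site of the window that holds the match, since several of these genes have more than 1 window. RRM2 holds 3 CCAAT boxes 123, 93 and 66 bases before 1 start site (chr2:10122604-10122633, chr2:10122634-10122663 and chr2:10122661-10122690, plus strand) and another 249 bases before its other start site (chr2:10122318-10122347, plus strand). TK1 holds 2 in reverse, 77 and 46 bases before (chr17:78187112-78187141 and chr17:78187081-78187110, minus strand). DUT holds 2 E2F-type motifs, the first 42 bases before the start (chr15:48332152-48332181, plus strand), and TYMS 1, 39 bases before (chr18:657603-657632, plus strand). DCK (chr4:70993659-70993688, plus strand), GART (chr21:33542338-33542367, minus strand) and PRPS2 (chrX:12791389-12791418, plus strand) hold 1 each.
RRM2, first CCAAT: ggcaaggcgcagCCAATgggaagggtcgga
RRM2, second CCAAT: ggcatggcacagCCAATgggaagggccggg
RRM2, last CCAAT: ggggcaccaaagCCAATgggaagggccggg
RRM2, other start site: tCCAATcgctgctcctcacgcaatcctaaa
TK1, first CCAAT: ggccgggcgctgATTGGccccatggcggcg
TK1, second CCAAT: ggccggctcgtgATTGGccagcacgccgtg
DUT, E2F-type: ctgGCGGGAAAtttcggtTTTGGCGCgctc
TYMS, E2F-type: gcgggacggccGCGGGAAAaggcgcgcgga
DCK, E2F-type: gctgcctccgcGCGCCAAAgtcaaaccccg
GART, E2F-type: agcatTTTGGCGCtcccccccggcgctcct
PRPS2, E2F-type: agccgccgcgcTTTCCCGCtcccgcagcag

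Carrying a motif did not go with 1 outcome. Among the E2F-type carriers DUT (-1.09) and TYMS (-0.82) were lower, while DCK (-0.09), GART (-0.03) and PRPS2 (-0.08) did not pass the test. The median log2 fold change was -0.09 for the 5 carriers and -0.26 for the 26 others, whereas over all tested genes it was -0.10 with and -0.01 without. For CACGTG it was -0.26 for the 7 carriers (ATIC, DCK, DHODH, MTHFD1, NME1, PAICS and PPAT) and -0.25 for the others, beside -0.02 with and without it over all tested genes. For the CCAAT box it was -0.34 for the 13 carriers and -0.13 for the others, beside -0.04 and 0.01 over all tested genes. A match describes the letters of a window and does not show binding.

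In the 3′ UTR, 6 of the 34 genes carried the 7-mer CAAACAA (17.6%, against 14% of tested genes with a 3′ UTR): RRM2, PPAT, DHODH, PAICS, MTHFD2 and GMPS. All 6 were lower, with a median of -0.51, and of the 28 without it 17 were lower (60.7%), with a median of -0.16. Over all tested genes 53.9% of carriers and 32.6% of the others were lower. The carriers had longer 3′ UTRs, with a median of 2677 bases against 637. Over all tested genes the medians were -0.24 with the 7-mer and -0.00 without, at 2974 and 932 bases. The 7-mer was picked from earlier results of these data, so it supports nothing, and the part of UTR length was not tested.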

How the data were processed

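The authors deposited 1 table of whole-number counts per gene for 6 RNA-seq libraries. Although the table is named for FPKM, its values as deposited are whole and sum to a different total in each library, and they were used as counts. Libraries were made with a directional kit from total RNA, per the labels' protocols. The genome build was hg38, per the submitters' processing notes. The aligner, counter, annotation and strand setting: not given in the sources used here.

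Groups came from the labels. Genes were filtered with filterByExpr (minimum count 10, minimum total 15), scaled by TMM and tested with edgeR 4.0.16 in R 4.3.3 by its two-sided quasi-likelihood test (glmQLFit, glmQLFTest). P-values were adjusted by Benjamini-Hochberg across the 15244 genes tested, with a threshold of 0.05. The biological coefficient of variation was 3.78%. The fit was tested on simulated data in which few genes changed, as many up as down. That simulation does not test the scaling where many genes change, as in these libraries. Totals of 16753495 to 21013530 counts set the precision, and a count of 0 allows up to 3 counts, for counting error only. Ratios of 10 gene pairs were tested with an exact permutation test. Alternatives used limma 3.58.1, DESeq2 1.42.0, other filters and scalings, a replicate block and leaving out each library. Exon overlaps and 3′ UTRs came from GENCODE 29.

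The enzyme genes and all lists were chosen with earlier results of these data known. Values in every library are given for OTUD1, for the 3 called genes of each group with the largest change, for genes called higher and for pairs whose ratios did not overlap, as well as for some others. Of other lists, up to 4 called genes with the largest change and up to 2 against most of the list were named, with some regulators beside them and with some genes not reported here. Promoter sequence came from a table of RefSeq windows, and protein sequence was not used here.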

Additional observations from a re-analysis of the deposited data

How the results depend on the processing

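Of the 34 enzyme genes, 19 kept both direction and call in all 14 alternatives. The 4 enzyme genes called higher became 7 with quantile normalization, and 2 to 4 when 1 library was left out. Among the 34, directions turned for estimates between -0.17 and -0.02. With a minimum of 5 CPM, GART and ATIC were at 0.01 and UMPS at 0.03. With library totals, which moved the median of all genes and of the enzyme genes by 0.13, GART and ATIC were at 0.09, UMPS at 0.11, CTPS1 at 0.03, PRPS2 at 0.05, HPRT1 at 0.06, DCK at 0.04 and RRM1 at 0.02. With quantile normalization, which moved the enzyme genes by 0.10 and all genes by 0.02, GART and CTPS1 were at 0.12, ATIC at 0.11, UMPS at 0.05, HPRT1 at 0.02 and SHMT2 at 0.06. UMPS was at 0.00 without control replicate 2 and at 0.02 without siRNA replicate 1, with estimates from -0.05 to 0.02 when 1 library was left out. The shift with library totals follows from the scaling, and the cause of the other changes was not tested. No pair ratio moved beyond the spread of the libraries under its alternatives.

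The replicate numbers did not pair the libraries: deviations of same-numbered libraries had correlations of -0.0155, 0.0334 and -0.0128. With the number as a replicate block, 23 enzyme genes were lower and 4 higher, and 4791 and 4484 of all genes tested. Low counts limit CDA, with 1 to 21 counts per library.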

Other observations

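MTAP, which returns adenine to APRT, was chosen here after its counts were seen. It had 0 counts in 5 libraries and 1 in OTUD1 siRNA replicate 1. A count of 0 allows a level of up to 0.188 CPM in the shallowest control library. MTAP lies at chromosome 9, 21802543 to 21937651 (hg38). Among protein-coding neighbours on its lower-coordinate side, FOCAD had 0 counts in the controls and 2 after OTUD1 siRNA, HACD4 had 0 in both groups and KLHL9 had 1 and 0. On the other side CDKN2B had 565 and 809 counts (log2 fold change 0.29, edgeR adjusted p = 0.0164) and DMRTA1 had 244 and 354. CDKN2A, the nearest of these genes on that side, had 83 and 101 counts and did not pass the test.

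TYMSOS, an RNA on the strand opposite TYMS, was also chosen after its values were seen. It had 17, 13 and 22 counts in the controls and 67, 76 and 46 after OTUD1 siRNA. TYMSOS was thus higher (log2 fold change 1.62, SE 0.27, edgeR adjusted p = 6.16e-06), whereas TYMS was lower (-0.82) in the same libraries. Without a stated strand setting, reads of overlapping exons on the 2 strands cannot be told apart.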
